A study of Mus musculus with 12 samples.

Results

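The 8 genes described here encode the GDNF family ligands and their receptors, and they were picked by name: the receptor tyrosine kinase *Ret*, the co-receptors *Gfra1*, *Gfra2*, *Gfra3* and *Gfra4*, and the ligands *Gdnf*, *Nrtn* (neurturin) and *Artn* (artemin). All 8 were found among the 45777 gene identifiers of the tables. The libraries came from total RNA of ventral spinal cord at E12.5, cut around the fluorescence of the motor neuron reporter Hb9::GFP, at the brachial (forelimb) and the lumbar (hindlimb) level. At each level, 3 libraries were from *Isl2* +/- embryos (Het) and 3 from *Isl2* -/- embryos (KO), so that the control embryos also carry 1 null copy of *Isl2*, a LIM homeodomain gene of motor neurons. The null allele has a neomycin cassette in place of several exons, and the deletion is not limited to motor neurons. The study asked which genes depend on *Isl2* at the level of each limb.

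A GDNF family ligand is a secreted dimer that first binds a GFR alpha co-receptor, which is tethered to the membrane by a lipid anchor, and the pair then recruits and activates the kinase RET. Each co-receptor has a preferred ligand: GFRA1 binds GDNF, GFRA2 neurturin, GFRA3 artemin and GFRA4 persephin. In the embryonic limb, GDNF comes from mesenchyme outside the spinal cord and from muscle, and motor neurons that carry *Ret* and *Gfra1* use it to steer axons, to survive and, in some motor pools, to switch on the ETS factor *Etv4*.

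Levels are in TPM, the share of a gene among the transcripts of a library scaled by its length, so that different genes can be compared. They were further rescaled between libraries by a size factor that ranged from 0.893 to 1.247. The libraries held 4.48 to 6.64 gigabases of aligned sequence, and 22983 to 24191 genes had a value above 0. *Isl2* itself, the check of the labels, was at 8.73, 8.33 and 9.72 TPM in the brachial Het libraries and at 6.04, 7.28 and 4.47 TPM in the brachial KO libraries. At the lumbar level it was at 10.3, 8.43 and 9.43 TPM in Het and at 7.33, 6.53 and 8.24 TPM in KO. The KO libraries lay below all Het libraries at both levels, by 0.61 (SE 0.18) and 0.35 (SE 0.13) on the log2 scale, with limma adjusted p of 0.357 and 0.999. Reads assigned to *Isl2* were thus still present in the KO libraries. The series names 3 animals of each genotype, and which brachial and lumbar libraries share an animal is not known. Female-specific transcripts marked 1 of 3 brachial Het, 2 of 3 lumbar Het, 1 of 3 brachial KO and 1 of 3 lumbar KO libraries. By this count the Het libraries of the brachial and lumbar level cannot all come from the same 3 embryos. Replicates are treated here as separate samples, and p-values cover the spread between them.

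All 9 listed motor neuron markers were detected, including *Mnx1*, *Isl1*, *Lhx3* and *Chat*. Their summed level was 519 to 532 TPM in brachial Het, 461 to 499 in brachial KO, 264 to 345 in lumbar Het and 205 to 278 in lumbar KO. The lower lumbar sum lay in *Prph*, a neuronal intermediate filament gene (225 to 320 TPM brachial and 31.1 to 76.7 TPM lumbar), and *Slc5a7*, the choline transporter gene (26.2 to 32.2 TPM brachial and 10.5 to 16.5 TPM lumbar), which are 2 of 9 called lower by limma between levels. The other 7, *Mnx1*, *Isl1*, *Isl2*, *Lhx3*, *Foxp1*, *Chat* and *Slc18a3*, did not pass the test. Of the other tissues that express these receptors or ligands, markers of dorsal root ganglion neurons summed to 13.3 to 20.1 TPM over the 4 groups, with *Runx3* and *Scn10a* at 0 in all libraries, and those of Schwann cells and neural crest to 15.2 to 26.1 TPM, with *Cdh19* under 0.5. Sympathetic neuron markers summed to 1.10 to 1.80 TPM with *Dbh* under 0.5, skeletal muscle markers to 0.772 to 1.99 TPM with *Myod1* at 0, and kidney markers to 15.3 to 28.1 TPM with *Six2* at 0, nearly all of it *Pax8*, which the spinal cord also expresses. In bulk tissue, fewer cells of a type and less RNA per cell cannot be told apart.

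The receptor side of the family was expressed well above the ligand side. *Gfra1* (gene 14585, chromosome 19, 58235581 to 58455946, minus strand), the co-receptor of GDNF, was the most abundant member in all 12 libraries. It stood at 62.8, 58.3 and 62.2 TPM in brachial Het, 62.7, 57.8 and 66.6 TPM in brachial KO, 67.2, 60.7 and 63.8 TPM in lumbar Het and 54.2, 59.9 and 48.5 TPM in lumbar KO. The 3 lumbar KO libraries held 3 of the 5 lowest values, and the brachial libraries of both genotypes were intermixed. *Ret* (gene 19713, chromosome 6, 118151748 to 118197744, minus strand), the kinase that all the ligands signal through, came next. Its values were 17.4, 18.2 and 13.6 TPM in brachial Het, 15.7, 18.6 and 18.9 TPM in brachial KO, 27.4, 19.5 and 23.3 TPM in lumbar Het and 21.7, 24.3 and 16.5 TPM in lumbar KO. In 5 of the 6 lumbar libraries *Ret* was above every brachial library, and the exception was lumbar KO replicate 3.

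**Figure D1:**
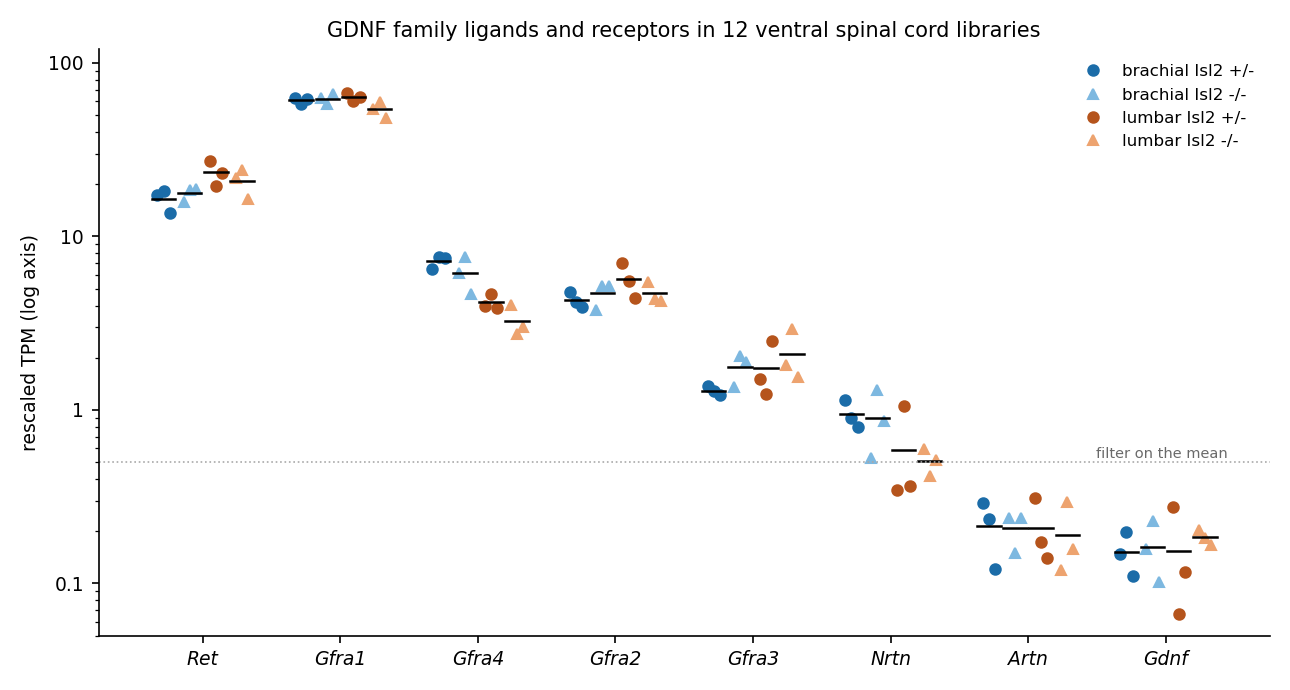
Rescaled TPM of the 8 members (log axis) in each of 12 libraries, by group; each point is a library, the black bar is the mean of the 3 libraries of a group, and the dotted line marks the mean of 0.5 TPM needed for the fit across genes. *Gfra1* and *Ret* lie on top, *Artn* and *Gdnf* lie under the line in every library, and the lumbar points of *Gfra4* lie below all its brachial points.

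The remaining co-receptors were lower. *Gfra4* (gene 14588, chromosome 2, 131039632 to 131043088, minus strand), the co-receptor of persephin, was at 6.46, 7.66 and 7.56 TPM in brachial Het and at 6.16, 7.57 and 4.68 TPM in brachial KO. In the lumbar cord it was at 4.0, 4.66 and 3.87 TPM in Het and at 4.01, 2.73 and 3.02 TPM in KO. Its lumbar values ended at 4.66 TPM, just under the lowest brachial value of 4.68 TPM, which belonged to brachial KO replicate 3, the library with the least aligned sequence.

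*Gfra2* (gene 14586, chromosome 14, 70890107 to 70979840, plus strand), the co-receptor of neurturin, was at 4.81, 4.19 and 3.91 TPM in brachial Het, 3.76, 5.21 and 5.21 TPM in brachial KO, 7.0, 5.56 and 4.43 TPM in lumbar Het and 5.50, 4.38 and 4.25 TPM in lumbar KO. *Gfra3* (gene 14587, chromosome 18, 34689898 to 34720387, minus strand), the artemin co-receptor known from sensory and sympathetic neurons, was at 1.37, 1.29 and 1.22 TPM in brachial Het, 1.36, 2.05 and 1.90 TPM in brachial KO, 1.51, 1.24 and 2.49 TPM in lumbar Het and 1.82, 2.94 and 1.55 TPM in lumbar KO. The groups overlapped for both genes, at both levels and in both genotypes. Of the summed TPM of the 4 co-receptors, *Gfra1* took 83.7% ± 1.76 (SD, n = 12), *Gfra4* 7.17% ± 2.35, *Gfra2* 6.74% ± 1.18 and *Gfra3* 2.41% ± 0.788.

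The 3 ligands together summed to between 0.622 and 1.67 TPM in a library, against 57.3 to 79.7 TPM for the 4 co-receptors. *Nrtn* (gene 18188, chromosome 17, 56751323 to 56757548, minus strand) was the highest of them, at 1.14, 0.903 and 0.795 TPM in brachial Het, 0.532, 1.30 and 0.861 TPM in brachial KO, 0.347, 1.05 and 0.365 TPM in lumbar Het and 0.593, 0.414 and 0.514 TPM in lumbar KO. In 4 of 6 lumbar libraries *Nrtn* was below every brachial library, and lumbar Het replicate 2 and lumbar KO replicate 1 lay within the brachial range. *Artn* (gene 11876, chromosome 4, 117925908 to 117930795, minus strand) ranged from 0.120 to 0.310 TPM and *Gdnf* (gene 14573, chromosome 15, 7810048 to 7837580, plus strand) from 0.0671 to 0.276 TPM over the 12 libraries. At such levels the mean read coverage of a base was 0.317 to 1.03 for *Artn* and 0.157 to 0.538 for *Gdnf*, against 122 to 188 for *Gfra1*, 37.8 to 87.6 for *Ret*, 11.0 to 22.5 for *Gfra2*, 7.02 to 19.6 for *Gfra4*, 3.47 to 9.24 for *Gfra3* and 1.02 to 3.59 for *Nrtn*. *Artn* and *Gdnf* did not reach the mean of 0.5 TPM needed for the fit across genes. With no filter, the limma log2 fold change between the levels had a 95% confidence interval of −0.43 to 0.50 for *Gdnf* and −0.56 to 0.41 for *Artn*.

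The order of levels in the brachial cord was *Gfra1*, *Ret*, *Gfra4*, *Gfra2*, *Gfra3*, *Nrtn*, *Artn* and *Gdnf*. *Gfra1* over *Ret*, *Ret* over *Gfra4*, *Gfra2* over *Gfra3* and *Nrtn* over *Artn* were steps in which the ranges of neighbouring genes did not overlap, while the ranges of *Gfra4* and *Gfra2*, of *Gfra3* and *Nrtn*, and of *Artn* and *Gdnf* did. In the lumbar cord *Gfra2* and *Gfra4* changed places. *Gfra4* was above *Gfra2* in 5 of 6 brachial libraries, all but brachial KO replicate 3, and *Gfra2* was above *Gfra4* in 6 of 6 lumbar libraries. The lumbar ranges of *Gfra2* and *Gfra4*, of *Gfra4* and *Gfra3*, and of *Artn* and *Gdnf* overlapped.

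The comparison of the lumbar with the brachial cord asked how the family differs along the axis of the cord, with both genotypes in 1 limma fit on log2(TPM + 0.1) and genotype as a term. Of all 16706 genes tested, 18.5% were called at an adjusted p under 0.05, 1488 higher and 1607 lower in the lumbar cord. Of the 8 members, 6 passed the filter and 1 of them was called, *Gfra4*, a share of 16.7% that is near that of all genes. *Gfra4* averaged 6.68 ± 1.17 TPM (SD, n = 6) in the brachial and 3.71 ± 0.712 TPM (n = 6) in the lumbar cord, a log2 fold change of −0.83 (SE 0.13, 95% confidence interval −1.11 to −0.56, adjusted p = 0.00131). All 6 lumbar libraries lay below all 6 brachial libraries, a separation found in either direction for 8.31% of the genes tested. The exact permutation test over the 6 against 6 libraries gave p = 0.00216, the smallest p this design allows. *Gfra4* was called in all 22 alternative fits of this comparison, with log2 fold changes from −0.97 to −0.70 and adjusted p from 6.60e-04 to 0.00639.

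Within the Het libraries alone, *Gfra4* was lower in the lumbar cord by −0.78 on the log2 scale (SE 0.12, adjusted p = 0.0235), where 2.93% of genes were called. The adjusted p was 0.109 without brachial Het replicate 2, 0.0885 without brachial Het replicate 3, 0.0529 without lumbar Het replicate 1, 0.0699 without lumbar Het replicate 3 and 0.0560 with no filter, while the log2 fold change stayed between −0.78 and −0.73 in these fits. Within the KO libraries alone the log2 fold change was −0.89 (SE 0.22, adjusted p = 0.0753), where 1.77% of genes were called. In each genotype the 3 lumbar libraries were below the 3 brachial libraries. The libraries of the 2 levels did not overlap, in either direction, for 25.9% of the genes in Het and 29.1% in KO.

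Windows of 250 bases before the transcription start, taken from RefSeq on the build GRCm38.p6, were available for 5 of the 8 members. Shown here are those of *Gfra4*, the member that passed the test between levels, and of *Nrtn*, which did not pass. *Nrtn* was the other member with a lumbar mean below the brachial mean by over 0.5 on the log2 scale. Both were picked for the level difference after the values had been seen. Control of it by Hox and other homeodomain proteins, which mark the levels of the cord, was not tested. The windows were searched on both strands for TAAT, the core that most homeodomain proteins bind, and for TGATNNAT, the form that Pbx and Hox proteins bind together. Capitals mark any match to either. *Gfra4* has 2 annotated starts, and the second window lies inside the gene. All 3 windows are given on the minus strand, from 5′ to 3′.
*Gfra4*, first start, chr2:131043089-131043338: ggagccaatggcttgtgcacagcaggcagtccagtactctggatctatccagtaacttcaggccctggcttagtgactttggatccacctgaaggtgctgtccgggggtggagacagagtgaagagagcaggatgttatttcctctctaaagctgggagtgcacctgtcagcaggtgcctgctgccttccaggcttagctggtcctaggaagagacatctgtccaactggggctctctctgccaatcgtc
*Gfra4*, second start, chr2:131042683-131042932: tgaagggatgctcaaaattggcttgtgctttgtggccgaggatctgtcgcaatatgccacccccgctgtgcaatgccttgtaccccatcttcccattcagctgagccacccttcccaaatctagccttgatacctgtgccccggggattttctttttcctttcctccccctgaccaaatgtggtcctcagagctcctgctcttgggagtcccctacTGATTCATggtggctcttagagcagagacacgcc
*Nrtn*, chr17:56757549-56757798: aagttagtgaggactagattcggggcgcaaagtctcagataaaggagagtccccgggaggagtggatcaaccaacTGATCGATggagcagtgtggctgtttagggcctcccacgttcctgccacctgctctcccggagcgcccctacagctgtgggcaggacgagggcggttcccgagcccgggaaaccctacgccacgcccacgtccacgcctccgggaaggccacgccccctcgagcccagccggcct
TAAT was in 2 of the 7 windows of the 5 members, both of *Gdnf*, and 54.9% of all 32841 windows of this length hold it. TGATNNAT was in 2 of the 7, the second *Gfra4* window and the *Nrtn* window, with 1 match each, and 7.69% of all windows hold it. The windows of *Gfra1* and *Artn*, like the first of *Gfra4*, held neither. The dinucleotide CG occurred 2 and 5 times in the *Gfra4* windows and 19 times in the *Nrtn* window, where the median window holds 6. A match of letters is a description of the sequence, and binding was not measured.

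*Ret* was the member with the clearest difference in the other direction, and it did not pass the test. It averaged 17.1 ± 2.07 TPM (SD, n = 6) in the brachial and 22.1 ± 3.81 TPM (n = 6) in the lumbar cord, a log2 fold change of 0.36 (SE 0.12, 95% confidence interval 0.10 to 0.62, limma adjusted p = 0.0542). The exact permutation test of *Ret* alone gave p = 0.0216, not adjusted over the members. Over the 22 alternative fits the limma adjusted p of *Ret* ran from 0.0160 to 0.354, and 3 of them passed. These were the fits without lumbar KO replicate 3 (0.0160), without brachial KO replicate 3 (0.0472) and over protein-coding genes alone (0.0392). With TPM as deposited, where the lumbar median of all genes is lower by 0.14 on the log2 scale, the difference of *Ret* was 0.22 and its exact permutation p 0.232. The Het libraries gave 0.51 (SE 0.15, adjusted p = 0.123), with all 3 lumbar above all 3 brachial values, and the KO libraries gave 0.22 (SE 0.16, adjusted p = 0.439), with overlap.

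*Nrtn* averaged 0.921 ± 0.268 TPM (SD, n = 6) in the brachial and 0.547 ± 0.263 TPM (n = 6) in the lumbar cord, with a log2 fold change of −0.70 (SE 0.27, 95% confidence interval −1.29 to −0.10, limma adjusted p = 0.0963). The adjusted p was 0.0306 without lumbar Het replicate 2, in which *Nrtn* was high. This was the 1 of 20 alternative fits that passed, and the adjusted p ran up to 0.214. The exact permutation test gave p = 0.0303, and with any 1 library removed it ranged from 0.00649 to 0.0606, rising above 0.05 without brachial Het replicate 1, brachial KO replicate 2, lumbar Het replicates 1 or 3, or lumbar KO replicate 2. *Gfra1* had a log2 fold change of −0.071 between the levels, with a 95% confidence interval of −0.22 to 0.077. With TPM as deposited the difference of *Gfra1* was −0.21 and its exact permutation p 0.0476. *Gfra2* differed by 0.19 (95% confidence interval −0.11 to 0.49) and *Gfra3* by 0.28 (−0.15 to 0.70), neither past the threshold. *Gdnf* and *Artn* gave exact permutation p of 0.870 and 0.688.

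**Figure D2:**
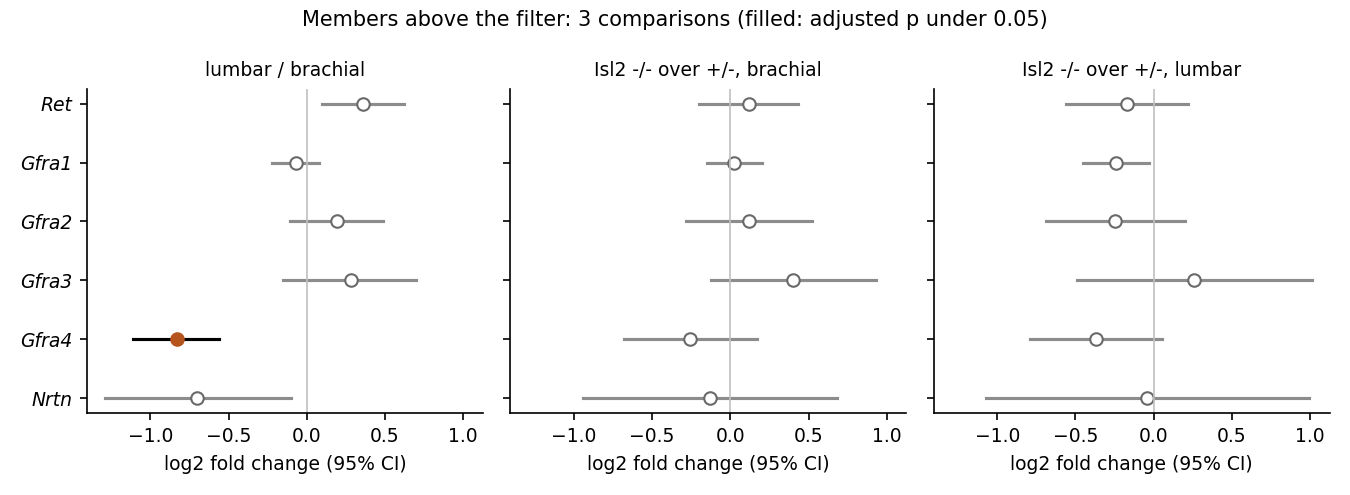
Log2 fold changes (points) with 95% confidence intervals (lines) of the 6 members that passed the filter, for lumbar over brachial (6 against 6 libraries) and for *Isl2* -/- over *Isl2* +/- at each level (3 against 3 libraries); filled points passed an adjusted p of 0.05. *Gfra4* between the levels, at −0.83, is the filled point.

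A ratio of 2 genes within a library does not depend on the scaling between libraries. The ratio of *Gfra1* to *Ret* was 3.61, 3.20 and 4.59 in brachial Het, 4.0, 3.11 and 3.52 in brachial KO, 2.45, 3.12 and 2.73 in lumbar Het and 2.50, 2.47 and 2.95 in lumbar KO. The brachial libraries thus held more *Gfra1* for each unit of *Ret*, and a single lumbar Het value of 3.12 lay above a single brachial KO value of 3.11. The means were 3.67 ± 0.551 (SD, n = 6) in the brachial and 2.70 ± 0.279 (n = 6) in the lumbar cord, a difference of −0.44 on the log2 scale (p = 0.00433 in an exact permutation test). This p is for a single pair and is not adjusted, and the share of other gene pairs with such a p was not computed. Neither gene alone was called between the levels. With any 1 library removed the difference stayed between −0.48 and −0.37, with exact permutation p from 0.00216 to 0.00866. The genotypes did not separate: the ratio was 3.80 in Het and 3.54 in KO at the brachial level (exact permutation p = 0.600) and 2.77 and 2.64 at the lumbar level (exact permutation p = 0.700), where 3 against 3 libraries cannot give a p under 0.1.

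The change of places of *Gfra4* and *Gfra2* was put as a ratio after the values had been seen. *Gfra4* to *Gfra2* was 1.34, 1.83 and 1.94 in brachial Het, 1.64, 1.45 and 0.899 in brachial KO, 0.571, 0.837 and 0.874 in lumbar Het and 0.728, 0.622 and 0.710 in lumbar KO. It averaged 1.52 ± 0.376 (SD, n = 6) in the brachial and 0.724 ± 0.118 (n = 6) in the lumbar cord, a log2 difference of −1.04 with no overlap of libraries, given as a description since the pair was chosen for this pattern. The ratio of *Gfra4* to *Ret*, also computed after seeing the values, went from 0.400 ± 0.0994 to 0.172 ± 0.0426 (n = 6 each), a log2 difference of −1.22, likewise a description. As a share of the summed co-receptors, *Gfra4* made up 9.02% ± 1.79 in the brachial and 5.32% ± 0.900 in the lumbar libraries, and *Gfra2* made up 6.06% ± 0.825 and 7.42% ± 1.13.

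**Figure D3:**
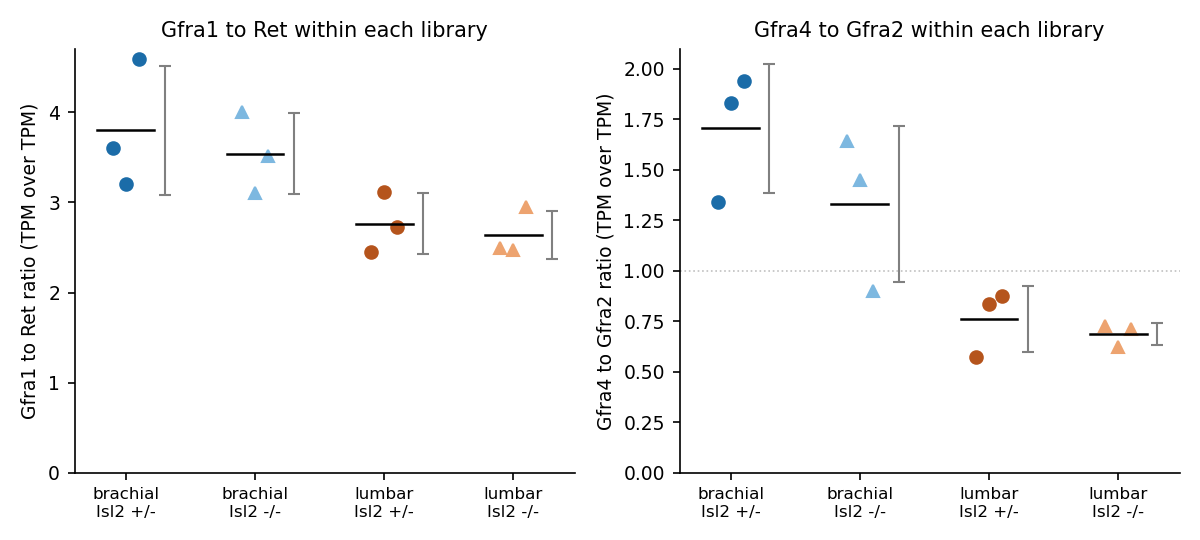
Ratios of *Gfra1* to *Ret* (left) and of *Gfra4* to *Gfra2* (right) within each of the 12 libraries, by group; points are libraries, black bars are means of 3, and grey bars are the mean ± SD. Brachial means of 3.67 and 1.52 compare with lumbar means of 2.70 and 0.724, and the dotted line on the right marks equal levels of *Gfra4* and *Gfra2*.

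Markers of other cells moved with the level beside these genes. Between the levels, limma called lower in the lumbar cord 2 of 9 motor neuron markers (*Prph* and *Slc5a7*), 1 of 4 tested Schwann cell and neural crest markers (*Erbb3*), 3 of 4 tested mesenchyme markers, 1 of 4 endothelial and 2 of 3 microglia markers, and higher 1 of 1 tested sympathetic marker (*Th*) and 1 of 2 tested kidney markers (*Pax8*). No dorsal root ganglion, muscle, embryonic blood or floor plate marker tested was called. These counts stand beside the 18.5% of all genes called between the levels. Between KO and Het, limma called 0 markers of any list at either level, where it called 0.00596% of all brachial and 0% of all lumbar genes tested. The mesenchyme list summed to 66.2 to 92.0 TPM in the brachial and 45.5 to 67.6 TPM in the lumbar libraries, with *Col1a1* and *Lum* under 0.5. Most of that sum was *Dcn*, at 57.8 to 83.8 TPM brachial and 37.9 to 59.1 TPM lumbar. The microglia list summed to 6.17 to 9.55 and 2.67 to 5.55 TPM. The part of these markers in the differences of *Gfra4*, *Ret* and *Nrtn* was not tested.

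The comparison of KO with Het at each level asked whether the family depends on *Isl2*. At the brachial level 0 of 6 members tested were called by limma, where 0.00596% of 16775 genes were, and 0 had an unadjusted p under 0.05, where 13.9% of genes did. *Ret* differed by a log2 fold change of 0.12 (95% confidence interval −0.20 to 0.43) and *Gfra1* by 0.027 (−0.15 to 0.20). The intervals were −0.28 to 0.52 for *Gfra2*, −0.12 to 0.93 for *Gfra3*, −0.68 to 0.17 for *Gfra4* and −0.94 to 0.68 for *Nrtn*. No member separated the 3 KO from the 3 Het libraries, against 20.1% of genes. The threshold of the study was a log2 fold change beyond 0.5 at an unadjusted p under 0.05. The study gives it for downregulated genes, and it was taken here in both directions. None of the members passed it, against 3.08% of genes.

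At the lumbar level 0 of 6 members were called, as were 0% of 16629 genes, and 1 had an unadjusted p under 0.05, where 4.86% of genes did. That member was *Gfra1*. Its KO mean of 54.2 ± 5.70 TPM (SD, n = 3) compares with 63.9 ± 3.23 TPM (n = 3) in Het, a log2 fold change of −0.24 (SE 0.091, 95% confidence interval −0.45 to −0.03, limma adjusted p = 0.999). All 3 KO values were below all 3 Het values, and 9.94% of genes separated the groups in either direction, the exact permutation p being 0.1, the smallest possible. The adjusted p stayed at 0.775 or above in all 17 alternative fits. Lumbar KO replicate 3 had the lowest *Gfra1* and *Ret* of the lumbar libraries. Of the motor neuron markers, it also had the lowest lumbar *Mnx1* (37.5 TPM), *Lhx3* (19.2 TPM), *Chat* (5.10 TPM), *Foxp1* and *Slc18a3*. It was not the lowest lumbar library for *Isl1*, *Isl2*, *Slc5a7* or *Prph*. Without this library the difference was −0.16 for *Gfra1* and −0.013 for *Ret*. With each lumbar library left out in turn, it ran from −0.31 to −0.16 for *Gfra1* and from −0.30 to −0.013 for *Ret*. The part of the motor neuron markers in these differences was not tested. *Ret* differed by −0.17 (95% confidence interval −0.56 to 0.22), *Gfra2* by −0.25 (−0.69 to 0.20), *Gfra3* by 0.26 (−0.49 to 1.01), *Gfra4* by −0.37 (−0.79 to 0.056) and *Nrtn* by −0.042 (−1.07 to 0.99). None of the 6 passed the threshold of the study, which 1.77% of genes did.

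The difference between the 2 knockout effects was tested as an interaction over 12 libraries. Of 6 members, 0 were called by limma, as were 0% of 16706 genes, and 1 member had an unadjusted p under 0.05, where 4.42% of genes did. This was again *Gfra1*, whose KO effect was lower at the lumbar level by 0.27 on the log2 scale (difference −0.27, SE 0.12, 95% confidence interval −0.53 to −0.0081, adjusted p = 0.812). For *Ret* the difference of the effects was −0.29 (95% confidence interval −0.81 to 0.23) and for *Gfra4* −0.11 (−0.69 to 0.47).

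The genes that work around RET were described with a list of 32: other ligands and receptors, adaptors that dock on the kinase, negative regulators, and the ETS factors that its signal can switch on. Of these, 28 passed the filter. The ligand *Pspn* (persephin) was at or under 0.478 TPM and the receptor *Gfral* at or under 0.0210 TPM in every library, both too low for the test, and *Gdf15* and *Grb7* did not pass either. Between the levels 9 of 28 were called, 32.1% against 18.5% of all genes, with 8 lower and 1 higher in the lumbar cord. The median log2 fold change was −0.14 over the 28 genes and 0.012 over all genes. With TPM as deposited 12 were called, and the split of calls over all genes went from 48.1% higher to 22.6% higher. The count was 6 without brachial Het replicate 2 and 12 without lumbar Het replicate 1.

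Of the target transcription factors, *Etv4* was lower in the lumbar cord by −1.60 on the log2 scale (SE 0.15, adjusted p = 3.10e-05) and *Etv5* by −0.99 (SE 0.18, adjusted p = 0.00296), while *Etv1* had 0.071 (adjusted p = 0.712). *Etv4*, which marks several limb motor pools, ranged from 20.6 to 30.2 TPM in the brachial and from 4.76 to 15.5 TPM in the lumbar libraries. Among the adaptors, *Dok4* (−0.36), *Dok5* (−0.24) and *Dok6* (−0.59), docking proteins that bind phosphorylated RET, were lower, and *Grb10*, an adaptor of receptor kinases, was higher (0.65, SE 0.087, adjusted p = 5.94e-04). *Grb10* ranged from 92.9 to 136 TPM in the brachial and from 158 to 212 TPM in the lumbar libraries. Among the negative regulators, *Spry1* (−0.36), *Spry2* (−0.34) and *Dusp6* (−0.29), feedback inhibitors of the ERK pathway that many growth factor receptors share, were lower, with adjusted p of 0.0469, 0.0436 and 0.0107. None of the 3 tested among the other ligands and receptors was called, with −0.42 for *Sdc3* (adjusted p = 0.0703), −0.17 for *Ncam1* (0.330) and 0.40 for *Gas1* (0.169). In the Het libraries alone 3 of 28 were called (*Grb10*, *Etv4* and *Dok4*), where 2.93% of all genes were, and in the KO libraries alone 1 (*Etv4*), where 1.77% were.

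**Figure D4:**
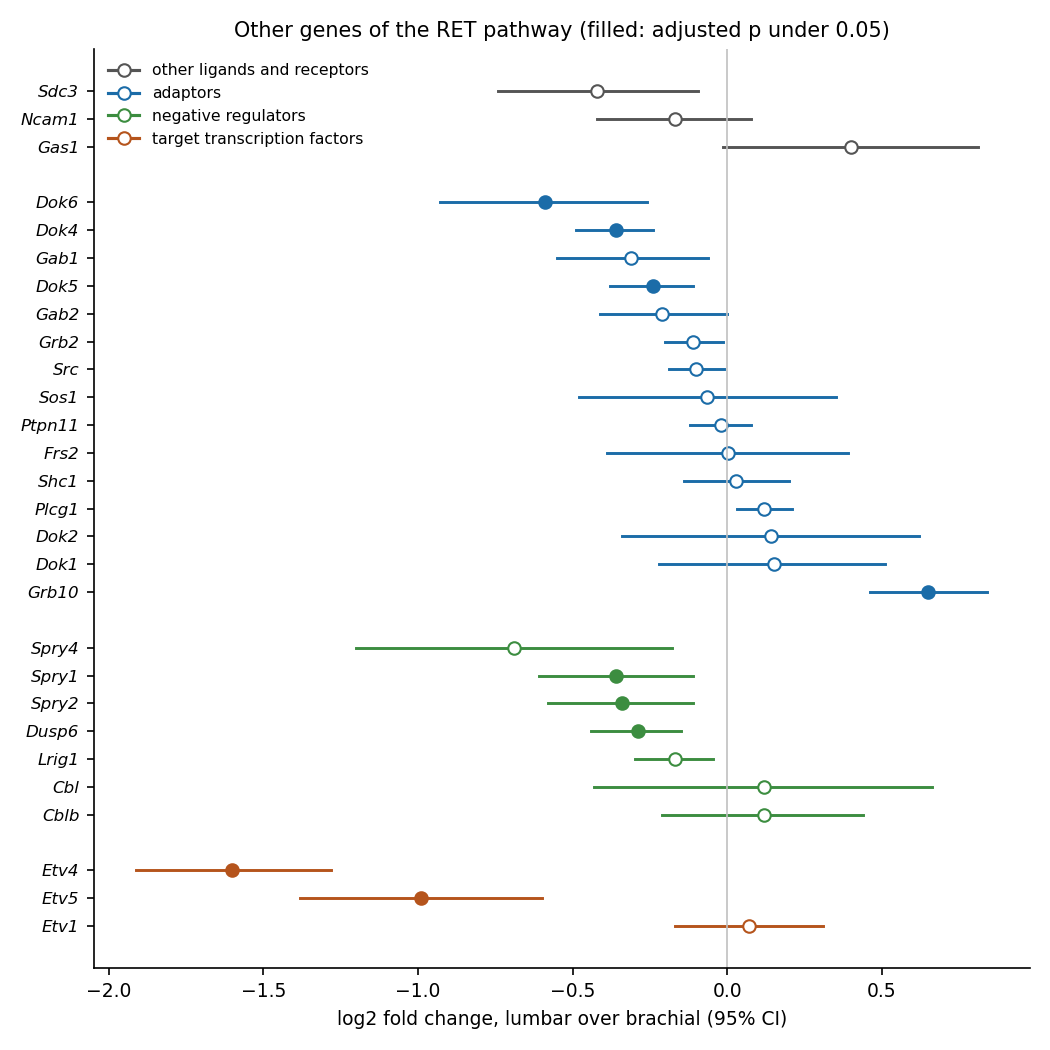
Log2 fold change, lumbar over brachial, of the 28 genes of the RET pathway list that passed the filter (points, with 95% confidence intervals as lines), by role; filled points passed an adjusted p of 0.05. *Etv4* at −1.60 and *Etv5* at −0.99 lie farthest to the left, and *Grb10* at 0.65 farthest to the right.

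For the knockout, limma called 0 of the 28 at the brachial level, with 7 at an unadjusted p under 0.05 (5 higher, 2 lower; 13.9% of all genes had such a p), and the 3 of smallest p were *Etv4* (−0.40), *Dok4* (−0.29) and *Ncam1* (0.42), each with an adjusted p of 0.357. The 5 higher genes (*Ncam1*, *Sdc3*, *Gab1*, *Gab2* and *Cblb*, named after their values were seen) each had their highest brachial value in KO replicate 3, the library with the least aligned sequence and, for the embryonic globin genes, the highest sum of the 12, 4548 TPM against at most 3305 TPM in the others. Without it 2 were higher and 2 lower, and 6.18% of all genes had an unadjusted p under 0.05; without Het replicate 3 it was 0 higher and 1 lower, and 4.67% of all genes, and without KO replicate 1 it was 9 higher and 4 lower, and 25.9%. At the lumbar level limma called 0, with 2 at an unadjusted p under 0.05 (4.86% of all genes), and the 3 of smallest p were *Etv4* (−1.0, adjusted p = 0.964), *Dok4* (−0.23, adjusted p = 0.999) and *Gas1* (0.49, adjusted p = 0.999). *Etv4* was the 1 gene of the list past the threshold of the study, at the lumbar level. Its lumbar values were 10.7, 8.78 and 15.5 TPM in Het and 4.76, 6.40 and 5.76 TPM in KO. *Dok4* was at 55.7, 54.7 and 59.0 TPM in brachial Het, 48.7, 49.8 and 40.3 TPM in brachial KO, 43.4, 40.8 and 44.4 TPM in lumbar Het and 39.0, 35.4 and 35.5 TPM in lumbar KO. For both genes the KO values were below the Het values at both levels, where the groups did not overlap in either direction for 20.1% of all genes (brachial) and 9.94% (lumbar). The difference of the KO effect between levels was called for 0 of 28, with 3 at an unadjusted p under 0.05 (4.42% of all genes), *Etv4* (−0.61), *Spry4* (−0.96) and *Sdc3* (−0.59), each at an adjusted p of 0.812.

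The genes whose levels followed a member most closely were ranked by Pearson's r of log2(TPM + 0.1) over the 12 libraries among 12560 protein-coding genes with a mean of at least 1 TPM. The libraries share 2 levels and 2 genotypes, so that these are descriptions. For *Ret* the top 3 were *Chrna3* (r = 0.92), *Akap12* (0.90) and *Hs1bp3* (0.90). For *Gfra1* they were *Dennd1c* (0.90), *Dnajc25* (0.89) and *Celf6* (0.87), for *Gfra2* *Scn3b* (0.87), *Sp9* (0.85) and *Fam174c* (0.80), and for *Gfra3* *Efcc1* (0.93), *Arhgef6* (0.86) and *2610507B11Rik* (0.86). For *Gfra4*, looked up after its values had been seen, they were *Mt3*, *Aldh1l1* and *Shtn1*, each with r = 0.98. Among the members, *Ret* followed *Gfra2* (r = 0.67) and *Gfra3* (0.59), ran against *Gfra4* (−0.60) and had r = 0.24 with *Gfra1*.

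Some genes overlap the members in the annotation, and whether the reads were counted by strand is not stated. *Gm46650*, on the same strand as *Gfra1*, averaged 0.998 TPM, and the other overlapping genes (*Gm10007* in *Gfra1*, *Gm34588* in *Gfra2*, *Gm52376* in *Gfra3* and *Mir6973b* in *Gfra4*) averaged at most 0.0328 TPM. Reads of *Gfra1* and *Gm46650* may have been split by the counting.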

How the data were processed

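RNA was measured in 12 libraries of mouse ventral spinal cord (3 for each of 4 groups). Per the labels and the methods of the study, the authors prepared ribosome-depleted stranded libraries, trimmed reads with Trimmomatic 0.38, aligned them to mm10 with HISAT2 2.1.0 and estimated gene values with StringTie 2.1.3b; FastQC 0.11.7 and Bowtie2 2.3.4.1 are also listed. The deposited tables give TPM, FPKM and base coverage (a signal) for each gene, with no read counts, so the count test of the study was not run. Of 45777 identifiers, 45679 were named with RefSeq genes of GRCm38.p6, and 96.2% had the same coordinates. In the deposited TPM, 5 small RNAs took 23.7% to 38.2% of a library, so values were rescaled by median-of-ratios size factors over 19305 genes. Genes with a mean of at least 0.5 TPM over the libraries fitted were tested on log2(TPM + 0.1) with limma 3.58.1 (R 4.3.3, eBayes with trend), with Benjamini-Hochberg adjustment over all genes tested. This scale understates fold changes of low genes. Single members and the ratio of *Gfra1* to *Ret* were tested with two-sided exact permutation tests, whose p-values were not adjusted. The limma fit was tested on simulated data. Depth per gene is the deposited coverage.

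The members and lists were chosen with earlier results of these data known. The genes named are the 8 members, the list genes past the adjusted threshold or else the 3 of smallest p, *Isl2*, and the 3 genes most like *Ret*, *Gfra1*, *Gfra2* and *Gfra3*. The genes most like *Gfra4*, the list genes named that were not called and the overlapping genes fall outside this rule and were named after their values were seen. Marker lists covered 11 tissues or cell types. A withheld item of these lists is not reported here. Alternatives changed the pseudocount (1 or 0.01 TPM), the filter (none, or a mean of 1 TPM), the scaling (TPM as deposited, quantile normalization), the unit (FPKM), the gene types, the trend, the replicate block, the libraries in a fit, and left out each library in turn.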

Additional observations from a re-analysis of the deposited data

How the results depend on the processing

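The lower lumbar level of *Gfra4* was called in all 22 alternative fits, and no knockout effect of a member passed the adjusted threshold under any. The lower lumbar ratio of *Gfra1* to *Ret* kept an unadjusted exact permutation p under 0.05 with each library left out. The other settings were not run for the ratio, and FPKM gives the same ratio by construction. Between the levels, 2 members were called over protein-coding genes alone, and 1 to 2 when each library was left out. In Het alone 0 were called with no filter, and 0 to 1 with a library left out, the log2 fold change of *Gfra4* staying between −0.86 and −0.73. In KO alone 1 was called over protein-coding genes. The deviations of same-numbered libraries from their group means had correlations of −0.21 to 0.34, over 0.1 in 4 of 12 pairs, and sex differed in 3 of 6 same-numbered brachial and lumbar pairs, and no pairing by number was assumed. With the replicate block 1 member was called between the levels (*Gfra4*, −0.83, adjusted p = 0.00639) and 0 for the knockout at either level, and the list of 32 gave 7 calls in place of 9.

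Changes of sign arose in small effects. With TPM as deposited, which shifts the median of all genes by 0.17 (KO against Het, brachial), −0.16 (difference of the KO effects), −0.14 (level) and −0.22 (level in KO), the effects were 0.031 for *Nrtn* and 0.11 for *Artn* (brachial KO), −0.064 for *Nrtn* (difference), −0.052 for *Gdnf* (level), and −0.0043 for *Ret*, −0.22 for *Gfra2* and −0.0056 for *Gfra3* (level in KO). With each library left out, the brachial KO effects ran from −0.021 to 0.080 for *Gfra1*, −0.01 to 0.21 for *Ret*, −0.41 to 0.16 for *Nrtn*, −0.24 to 0.17 for *Artn*, −0.13 to 0.22 for *Gdnf* and −0.21 to 0.051 for the ratio of *Gfra1* to *Ret*. The lumbar KO effects ran from −0.28 to 0.072 for *Nrtn* in limma (to 0.40 in the permutation test), −0.34 to 0.13 for *Artn*, −0.0074 to 0.58 for *Gdnf*, −0.15 to 0.021 for *Gfra1* to *Ret* and −0.35 to 0.035 for *Gfra4* to *Ret*. The differences of the KO effects ran from −0.40 to 0.13 for *Gfra3*, −0.29 to 0.053 for *Gfra4* and −0.20 to 0.53 for *Nrtn*. The level effects ran from −0.17 to 0.0055 for *Artn* and −0.072 to 0.16 for *Gdnf*, and in KO from −0.15 to 0.080 for *Gfra2* and −0.05 to 0.39 for *Gfra3*. The cause was not tested. Values under 0.5 TPM limit *Gdnf* and *Artn*, and 3 libraries a group limit the knockout tests.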
